A study of Mus musculus with 31 samples.

Results

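MicroRNAs of the right hippocampus were compared between 5 exercised mice without the serotonin transporter (5-HTT knockout, KO-exercise) and 5 exercised wild-type mice (WT-exercise), which together make up 10 of the 31 small RNA libraries of the series. The libraries were chosen by their labels alone: all libraries labelled with exercise were taken, and each was placed by its labelled genotype. All animals were of the C57Bl/6 J strain, and the exercise lasted 4 weeks. The sources used here do not give the kind of exercise or the sex and age of the mice. The study asked how exercise and a raised stress hormone act on hippocampal small RNA and whether this depends on the transporter. Beside the exercised mice, 6 KO-water and 7 WT-water libraries, from mice of the same strain and genotypes that were labelled with water as treatment, were used to set the genotype difference after exercise against that without it. The 6 WT-corticosterone and 2 KO-corticosterone libraries, labelled with corticosterone for 4 weeks, entered only a joint fit of all 6 groups. Counts of a few microRNAs in WT-corticosterone are also described. The labels describe the replicates as biological replicates, and each library was taken as 1 animal. If animals shared a litter or a cage, p-values would measure only the spread between these samples. How the knockout allele was made, and whether it is confined to any tissue or age, the labels do not say, so loss of the transporter in the adult hippocampus cannot be told apart from loss elsewhere or earlier.

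The serotonin transporter takes released serotonin back up into nerve terminals and is the target of the selective serotonin reuptake inhibitors. Serotonergic fibres from the raphe nuclei reach the hippocampus, where exercise is known to alter plasticity and the birth of neurons. MicroRNAs are short RNAs cut from hairpin precursors. Loaded into an Argonaute protein, they pair with messenger RNAs through the seed, the bases near their 5′ end, and lower the output of those messengers. A few microRNAs of the hippocampus follow neuronal activity. The best known are miR-132 and miR-212, which are cut from 1 primary transcript that the transcription factor CREB induces.

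The sequences of some of the microRNAs described below are given first, 5′ to 3′, with the seed (bases 2 to 8) in capitals. They come from RefSeq, in the GRCm38.p6 build, which held a mature sequence for 446 of the 517 microRNAs tested. The first 4 are among the 5 with an unadjusted p below 0.05, all lower in the knockout libraries, the next pair was higher, and the last pair varied between animals of 1 genotype.
miR-212-3p: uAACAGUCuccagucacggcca
miR-132-3p: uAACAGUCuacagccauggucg
miR-99b-5p: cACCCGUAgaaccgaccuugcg
miR-18a-5p: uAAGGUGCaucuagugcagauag
miR-3618-3p: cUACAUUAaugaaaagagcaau
miR-3618-5p: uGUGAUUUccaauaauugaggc
miR-219a-5p: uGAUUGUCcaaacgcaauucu
miR-342-3p: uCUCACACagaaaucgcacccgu

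MiR-212-3p (chr11:75173443-75173464, plus strand) and miR-132-3p (chr11:75173723-75173744, plus strand) carry the same seed. Both hairpins lie in an intron of the noncoding transcript 1700016P03Rik. MiR-99b-5p (chr17:17830194-17830215, plus strand) shares its seed with miR-99a-5p and miR-100-5p. MiR-18a-5p (chr14:115043867-115043889, plus strand) lies in an exon of Mir17hg, the host transcript of the miR-17/92 cluster. The miR-3618 arms (chr16:18284562-18284583 and chr16:18284602-18284623, minus strand) come from a hairpin inside an exon of Dgcr8, which encodes the partner of Drosha in the first cut of microRNA precursors. MiR-342-3p (chr12:108658680-108658702, plus strand) is cut from an intron of Evl. MiR-219a-5p has copies at chr2:29845689-29845709 and chr17:34025052-34025072, both on the minus strand, and its counts cannot be assigned to either.

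Library totals ran from 1011285 to 3116879 counts in KO-exercise and from 1411350 to 2279300 in WT-exercise (exact permutation test over samples, two-sided, p = 0.913, adjusted over 3 library measures p = 0.937). Between 828 and 988 microRNAs were detected per knockout library and between 869 and 953 per wild-type library (exact permutation p = 0.937). The neuronal microRNA miR-124-3p took 24.6% ± 2.17 (SD, n = 5) of the counts in KO-exercise and 23.6% ± 1.39 (SD, n = 5) in WT-exercise (exact permutation p = 0.397). The smallest p that 5 against 5 libraries allow is 0.00794. No pair of libraries within a group agreed within sampling noise (lowest chi-square per degree of freedom 16.1). Of 1966 microRNAs in the tables, 577 had no count in any of the 10 libraries. No microRNA had 10 or more counts in 1 genotype and none in the other. The tables hold microRNAs alone and not the transporter's messenger RNA, so the counts offer no check of the labelled genotypes. Neuron-enriched microRNAs summed to 402432 to 470472 CPM (counts per scaled library size, by the TMM method of edgeR) in KO-exercise and to 400091 to 472126 CPM in WT-exercise, so markers of the labelled brain tissue were high in every library.

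No microRNA differed between exercised knockout and exercised wild-type hippocampi at an adjusted p below 0.05. Of 517 microRNAs with enough counts to test, 0 rose and 0 fell (0% called), and the lowest adjusted p was 0.999 (edgeR quasi-likelihood test, Benjamini-Hochberg). DESeq2 also called 0, with a lowest adjusted p of 0.337 for miR-212-3p, and limma-voom called 0. At an unadjusted p below 0.05 there were 5 microRNAs by edgeR (0.967% of those tested) and 6 by DESeq2. All 5 were lower in the knockout libraries. A share of 0.05 is expected at that level with no difference at all, so small p-values were not in excess. Differences are given throughout as log2 fold changes, KO-exercise minus WT-exercise. Their median over the 517 was -0.02, and their interquartile range was -0.16 to 0.10.

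The absence of calls does not show that the genotypes were alike, and the intervals say how large a difference each microRNA could still have. The median standard error (SE) was 0.27. For 409 of the 517 microRNAs (79.1%), the 95% interval of the difference lay inside -1 to 1 on the log2 scale. For 160 it lay within a 1.5-fold change in either direction. MiR-219a-5p was the only microRNA tested with a difference beyond 1 on the log2 scale, and its interval ran from -2.86 to 0.37.

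The 5 microRNAs with an unadjusted p below 0.05 start with the activity-induced pair. MiR-212-3p was counted at 1388, 1233, 1702, 1737 and 1659 CPM in the knockout libraries 1 to 5 and at 1975, 2458, 2304, 2019 and 1968 CPM in the wild-type libraries. Every knockout library was below every wild-type library. The means were 1544 ± 221 and 2145 ± 223 CPM (SD, n = 5 each). The log2 difference was -0.47 ± 0.15 (SE; 95% interval -0.79 to -0.16). Its unadjusted p was 0.00679 by edgeR, the smallest of the table, and its adjusted p 0.999. Of the 517 microRNAs, 3 (0.58%) had groups that did not overlap, miR-212-3p among them. Random labelling separates 5 from 5 libraries with a probability of 0.00794, so this share is no more than chance gives.

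MiR-132-3p, its neighbour on the same primary transcript, represses among others the synaptic regulator p250GAP. It was counted at 3687, 4007, 4880, 4577 and 3620 CPM in the knockout libraries and at 4409, 5709, 5625, 6332 and 5069 CPM in the wild-type libraries. The groups overlapped: the lowest wild-type library lay below knockout libraries 3 and 4. The means were 4154 ± 555 and 5429 ± 725 CPM (SD, n = 5 each), a log2 difference of -0.39 ± 0.15 (SE; 95% interval -0.71 to -0.06) with an edgeR unadjusted p of 0.0245. Of the other arms of the same 2 hairpins, miR-132-5p differed by -0.24 ± 0.15 and miR-212-5p, with means of 9.16 CPM in the knockout and 9.65 CPM in the wild type, by -0.05 ± 0.28.

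Sample codes start with G or H, a letter whose meaning is not given. Among libraries with the same letter, the difference of miR-212-3p was -0.64 for G and -0.24 for H. That of miR-132-3p was -0.32 and -0.48. Letter G held 3 libraries per genotype and letter H held 2. Leaving out each library in turn kept miR-212-3p between -0.53 and -0.41 and miR-132-3p between -0.46 and -0.33.

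**Figure D1:**
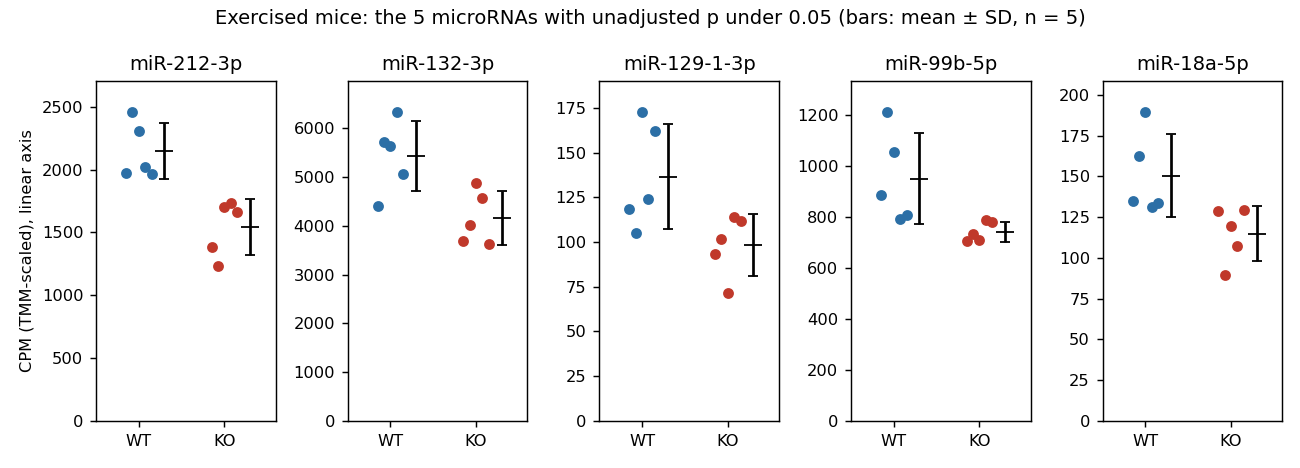
Level in CPM (TMM-scaled, linear axis from 0) of the 5 microRNAs with an unadjusted p below 0.05, 1 point per library, with the mean and SD of the 5 libraries of each genotype beside the points. The knockout points lie below all wild-type points for miR-212-3p, miR-99b-5p and miR-18a-5p, and overlap with them for miR-132-3p and miR-129-1-3p.

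MiR-129-1-3p is the 3′ arm of a hairpin whose 5′ arm, miR-129-5p, is known to repress potassium channel messengers in dendrites. It was counted at 93.4, 101.97, 71.2, 114 and 112 CPM in the knockout libraries and at 118, 105, 173, 124 and 162 CPM in the wild-type libraries. The groups overlapped through wild-type library 2 alone. The difference was -0.47 ± 0.19 (SE; edgeR unadjusted p = 0.0329). Its relatives stood lower in the knockout too, but not past that p: miR-129-2-3p by -0.34 ± 0.19 and miR-129-5p by -0.16 ± 0.28.

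MiR-99b-5p, of a family known to act on the mTOR kinase messenger, was at 704, 732, 709, 786 and 779 CPM in the knockout libraries and at 885, 1212, 1054, 791 and 808 CPM in the wild-type libraries. The groups did not overlap, but knockout library 4 and wild-type library 4 nearly met. The difference was -0.36 ± 0.15 (SE; edgeR unadjusted p = 0.0388). It was -0.55 within letter G and -0.04 within letter H. The same seed is carried by miR-99a-5p, which differed by -0.44 ± 0.32, and by miR-100-5p, which differed by -0.34 ± 0.27. The opposite arm, miR-99b-3p, stood at 0.24 ± 0.19, on the other side of 0.

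MiR-18a-5p has been reported to lower the glucocorticoid receptor. It was at 128.8, 89.3, 120, 107 and 129.4 CPM in the knockout libraries and at 135, 162.6, 189.5, 131 and 134 CPM in the wild-type libraries. No knockout library reached the lowest wild-type library, although the highest came close to it. The difference was -0.38 ± 0.17 (SE; edgeR unadjusted p = 0.0436), with -0.53 within letter G and -0.16 within letter H. Other members of the same cluster did not share its size: miR-17-5p stood at 0.01 ± 0.15, miR-19b-3p at -0.28 ± 0.23, miR-20a-5p at -0.16 ± 0.31 and miR-92a-3p at 0.16 ± 0.20.

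The next microRNAs by p, all lower in the knockout, were miR-467a-5p at -0.40 ± 0.19, miR-296-3p at -0.39 ± 0.21 and miR-467a-3p at -0.46 ± 0.25. The members of the miR-467 family are near copies of one another, and the sources used here do not say how their reads were shared.

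No microRNA was higher in the knockout at an unadjusted p below 0.05. The 8 with the smallest p in that direction were mostly of low abundance. Both arms of miR-3618 stood higher, the 3p arm by 0.82 ± 0.40 and the 5p arm by 0.78 ± 0.40 (edgeR unadjusted p = 0.0655 and 0.0758). The 3p arm was at 46.2, 23.3, 18.8, 25.2 and 15.8 CPM in the knockout libraries and at 26.8, 8.13, 8.37, 19.6 and 9.69 CPM in the wild-type libraries. Knockout library 1 was the highest of the 10, and the remaining knockout libraries overlapped with wild-type libraries 1 and 4. The 2 arms had nearly the same counts, 233 and 231 in all knockout libraries and 137 and 139 in all wild-type libraries, so they give 1 observation and not 2. The match held library by library, as with 86 and 86 counts in knockout library 1 and 15 and 16 in wild-type library 2. Whether these reads come from separate microRNA arms was not tested. Without knockout library 1 the 3p arm stood at 0.46 and the 5p arm at 0.42. The other hairpin of Dgcr8, miR-1306, had its 5p arm at -0.20 ± 0.28.

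MiR-10a-5p, encoded among the Hox genes and typical of hindbrain and spinal cord, was at 9.12, 5.83, 13.1, 13.9 and 6.63 CPM in the knockout libraries and at 3.57, 11.4, 6.09, 3.34 and 4.08 CPM in the wild-type libraries. The groups overlapped widely, and the difference was 0.78 ± 0.40, or 1.17 without wild-type library 2. The 5 microRNAs typical of hindbrain and spinal cord summed to 18 to 35.9 CPM in the knockout and 7.74 to 24.4 CPM in the wild type. Of them 2 could be tested and both stood higher in the knockout. MiR-196a-5p had 2 counts in all knockout libraries and 0 in the wild type, and the part of hindbrain tissue in the difference of miR-10a-5p was not tested.

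MiR-3535 was at 2870, 1752, 1184, 1215 and 757 CPM in the knockout libraries and at 1978, 187, 763, 582 and 690 CPM in the wild-type libraries, a difference of 0.89 ± 0.52. It was 0.50 without knockout library 1 and 1.48 without wild-type library 1. Its locus is annotated as a small nucleolar RNA within Ncl (chr1:86352062-86352087, minus strand), so its reads may not all be those of a microRNA. MiR-7068-3p, from an exon of Cherp, stood at 0.93 ± 0.56. It was at 0.49 without knockout library 2, at 1.67 within letter G and at -0.55 within letter H, which is the opposite direction. Smaller differences were found for miR-322-3p (0.43 ± 0.21), for miR-1264-3p (0.43 ± 0.23, or 0.27 without wild-type library 2), encoded in the serotonin receptor gene Htr2c, and for miR-30c-1-3p (0.47 ± 0.26).

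**Figure D2:**
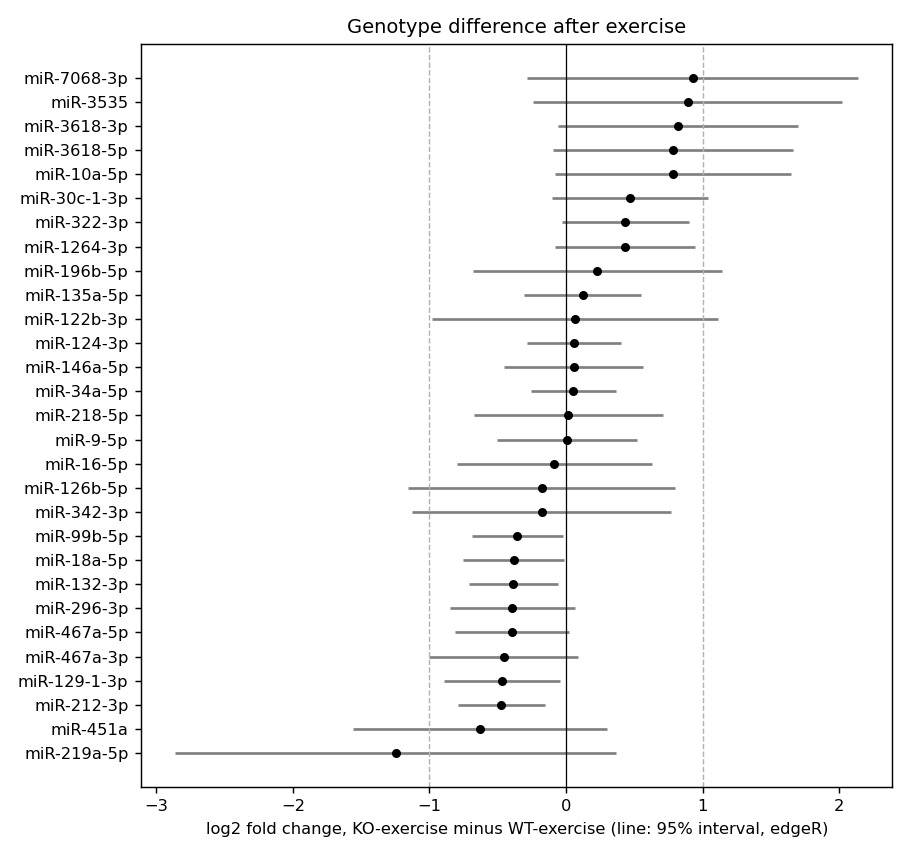
Log2 fold change (KO-exercise minus WT-exercise, dots) with its 95% interval (lines, edgeR) for the microRNAs with the smallest p in each direction and of a fixed set, with dashed lines at -1 and 1. The intervals of the 5 microRNAs with an unadjusted p below 0.05 lie to the left of 0, and that of miR-219a-5p is the widest, from -2.86 to 0.37.

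The microRNA lists by role gave 0 calls in all 19. Activity-regulated microRNAs had 21 tested members, 10 higher and 11 lower in the knockout, with a median of -0.05 against -0.02 over all microRNAs tested. Their extremes were miR-22-3p at -0.62 ± 0.43 and miR-182-5p at 0.45 ± 0.96. Of the 21, miR-132-3p and miR-212-3p alone had an unadjusted p below 0.05 (edgeR). Neuron-enriched microRNAs had 14 members higher and 11 lower, with a median of 0.01. Their most abundant members were near 0: miR-124-3p stood at 0.06 ± 0.16, miR-138-5p at -0.11 ± 0.22, miR-9-5p at 0.01 ± 0.23 and miR-218-5p at 0.02 ± 0.32.

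MicroRNAs reported to target the serotonin transporter had 10 tested members, 3 higher and 7 lower, with a median of -0.05. MiR-16-5p, the best studied of them, was at 9691, 21270, 12257, 18688 and 12902 CPM in the knockout libraries and at 7867, 9501, 25438, 18216 and 18490 CPM in the wild-type libraries. The libraries of both genotypes covered much the same range, and the difference was -0.09 ± 0.33 (95% interval -0.80 to 0.63). MiR-135a-5p stood at 0.12 ± 0.20 and miR-15b-5p at -0.83 ± 0.63. In the list reported to target the glucocorticoid receptor, 7 of 9 tested members were lower and 2 higher, with a median of -0.13 and miR-18a-5p as the extreme. The 8 tested microRNAs within Htr2c had 6 members higher and 2 lower, with a median of 0.10.

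Families and clusters were shifted little. In the miR-29 and miR-30 families 13 of 16 were higher, with a median of 0.10. Among let-7 and miR-98, 8 of 11 were higher, with a median of 0.06, and let-7c-5p stood at 0.10 ± 0.20. The miR-34 family had 3 higher and 4 lower, with miR-34a-5p at 0.05 ± 0.14. Of the miR-17/92 and paralogous clusters 8 of 12 were lower, with a median of -0.20. The imprinted Dlk1-Dio3 locus holds a large microRNA cluster. On its miR-379/miR-410 side 43 of 57 were lower, with a median of -0.07 against -0.02 over all microRNAs tested. On its miR-127/miR-433 side 18 of 22 were lower, with a median of -0.14. The most abundant members of the 2 sides moved without wild-type library 2. MiR-376a-3p went from -0.23 to -0.12 and miR-434-3p from -0.20 to 0.14. Members of a cluster share a transcript and are not separate observations.

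MicroRNAs of other cell types overlapped between the genotypes. Of 8 tested oligodendrocyte microRNAs 7 were lower in the knockout. Their list summed to 6336 to 9693 CPM in the knockout and to 5862 to 13034 CPM in the wild type. MiR-23a-3p, its most abundant member and the only 1 higher, stood at 0.06 ± 0.19. MiR-338-3p stood at -0.23 ± 0.44, or at 0.12 without wild-type library 2. MiR-219b-3p of that list had no count in any of the 10 libraries. MiR-144-3p was counted both in that list and in the red blood cell list. Of 5 tested red blood cell microRNAs 4 were lower, with sums of 444 to 966 CPM and 500 to 1937 CPM, and miR-451a stood at -0.63 ± 0.43. Wild-type library 2 held 1706 CPM of miR-451a against 371 to 873 CPM in the other wild-type libraries, and without it the difference was -0.15. Microglial and immune cell microRNAs had 3 higher and 6 lower, with miR-142a-3p at -0.23 as the lowest and miR-155-5p at 0.22 as the highest. Vessel microRNAs had 4 higher and 5 lower. The highest, miR-10a-5p at 0.78, is also in the hindbrain and spinal cord list. Choroid plexus and ciliated cell microRNAs had 2 higher and 7 lower, but with a median of -0.008 and a lowest value of -0.06. The 3 tested muscle microRNAs were all lower, with a median of -0.08. In these bulk samples, fewer cells of a type and less of their RNA per cell cannot be told apart.

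**Figure D3:**
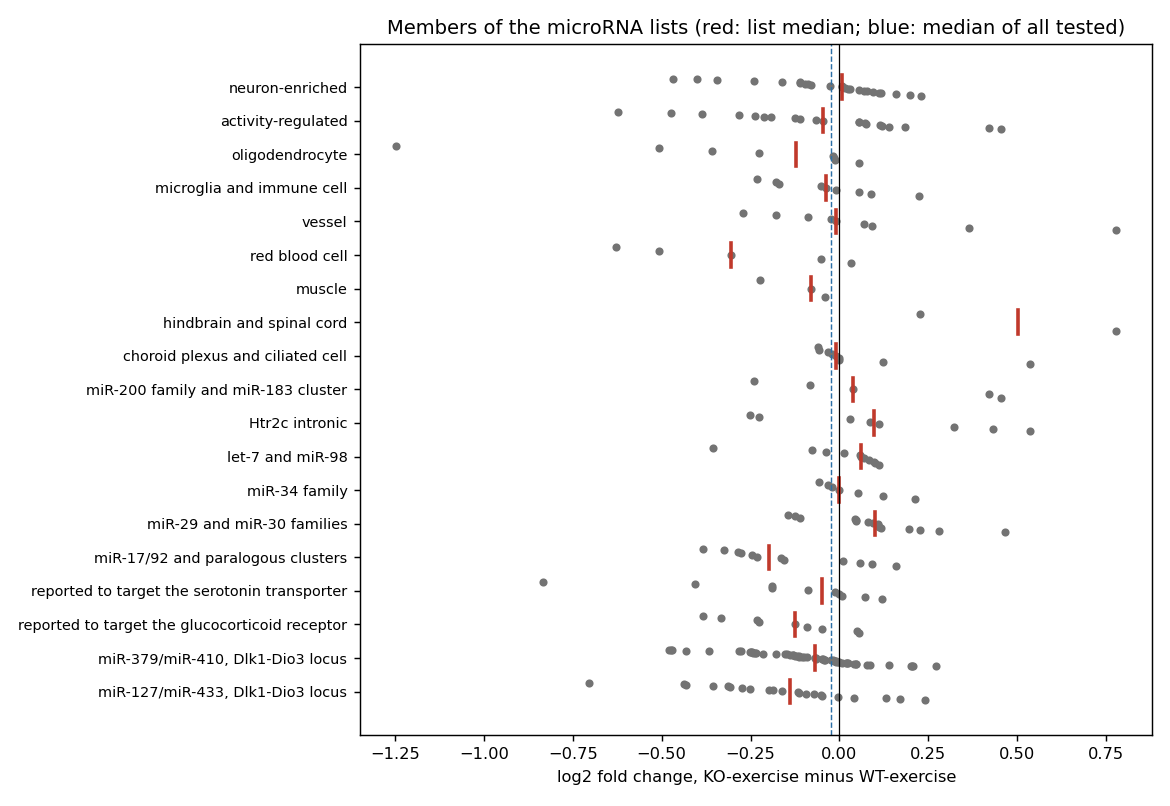
Log2 fold change (KO-exercise minus WT-exercise) of each tested member (grey dots) of the 19 microRNA lists, with the list median in red and the median of all 517 microRNAs tested as a dashed blue line at -0.02. All list medians lie between -0.31 and 0.10 except that of the hindbrain and spinal cord list, which rests on 2 microRNAs.

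Animals of 1 genotype differed from one another along a shared axis. After the group means were removed, 1 axis held 60.0% of the variance of the 517 microRNAs over the 10 libraries, and the next held 10.3%. Along that axis 228 microRNAs had a correlation with the library scores above 0.8 in size. The scores were -8.05, 7.78, -3.26, 4.64 and -1.11 in the knockout libraries and -8.96, -14.2, 11.3, 6.05 and 5.84 in the wild-type libraries. The wild-type libraries spread further, with replicates 2 and 3 at either end. The median SD of log2 CPM within a group was 0.34 in the knockout and 0.46 in the wild type, and an SD above 1 was reached by 7 and by 25 microRNAs. Whether the spread differs between the genotypes was not tested.

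MiR-219a-5p, a promoter of oligodendrocyte maturation, marked the low end of this axis. It was at 638, 279.7, 288, 178.3 and 188 CPM in the knockout libraries and at 852, 2321, 95.1, 225 and 238 CPM in the wild-type libraries. Wild-type libraries 2 and 3 were the highest and the lowest of the 10, so the group means of 314 ± 188 and 746 ± 928 CPM (SD, n = 5 each) describe few animals. The difference of -1.25 ± 0.74 became -0.23 without wild-type library 2, and it was -0.48 with the axis as a covariate. The axis was drawn from these same libraries with miR-219a-5p among them, so this covariate is no independent adjustment. By limma-voom without the covariate the difference was -0.52.

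MiR-342-3p, cut from Evl, ran the other way. It was at 4048, 9480, 4964, 7776 and 5247 CPM in the knockout libraries and at 3304, 2545, 15331, 6584 and 7906 CPM in the wild-type libraries. The same wild-type libraries, 3 and 2, were again at the ends, now in the opposite order. Its difference of -0.18 ± 0.43 was 0.31 without wild-type library 3. The sensory cluster microRNA miR-182-5p had the largest weight at the high end of the axis. It ran from 3.22 to 97.1 CPM in the knockout and from 1.08 to 48.0 CPM in the wild type. Its 97.1 CPM was that of knockout library 2 alone, with 3.22 to 9.78 CPM in the other knockout libraries. It followed the scores less closely (correlation 0.82) than did miR-34c-3p (0.98). The weight of a microRNA on the axis went with the GC content of its mature sequence (Pearson 0.36, Spearman 0.39 over 446 microRNAs that share these libraries), and the part of sequence composition in the axis was not tested.

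With the axis as a covariate, 33 of the 517 microRNAs had an unadjusted p below 0.05 (edgeR). That is near the share of 0.05 expected with no difference. Of them 0 were called, with a lowest adjusted p of 0.256 for miR-212-3p (edgeR). The scores sum to 0 within each genotype because the group means were removed first, so a genotype difference that is alike with and without this covariate is no sign of stability.

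**Figure D4:**
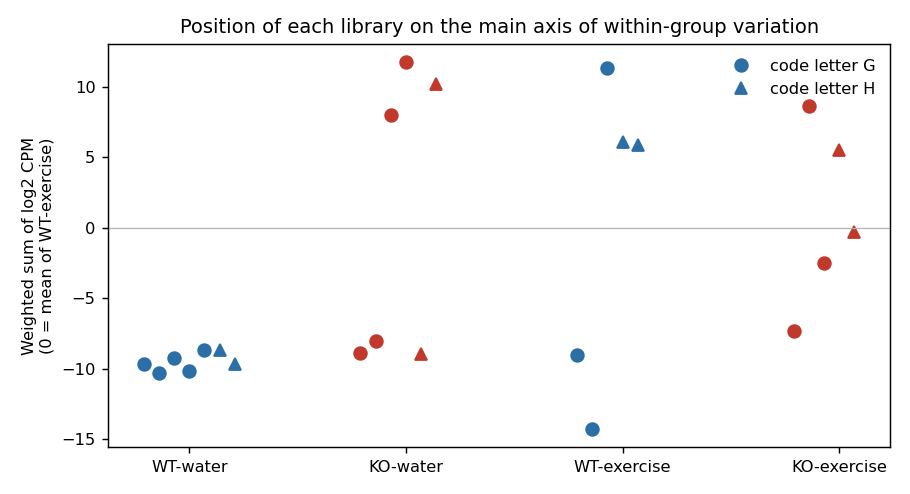
Position of each library on the axis of within-group variation of the exercised mice, as the weighted sum of log2 CPM over the axis weights (0 is the mean of WT-exercise), by group, with wild type in blue and knockout in red and the code letter as the point shape. WT-water libraries lie together between -10.3 and -8.66, KO-water libraries fall at -8.95 to -8.02 or 7.99 to 11.7, and both exercise groups spread over the range.

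The genotype difference after exercise was then set beside that under water, with which it shares no library. Under water, 0 of 545 microRNAs were called (0%), but the lowest adjusted p, 0.0555, was just above the cutoff (edgeR). An unadjusted p below 0.05 was reached by 179 (edgeR), well above the share of 0.05 expected with no difference. MicroRNAs that vary together are not separate observations. DESeq2 called 21.1% of the 545 and limma-voom 0. On the axis above, the 7 WT-water libraries lay between -10.3 and -8.66. Of the KO-water libraries, replicates 1, 2 and 5 lay between -8.95 and -8.02 and replicates 3, 4 and 6 between 7.99 and 11.7. The latter 3 are those in the authors' deposited table of the water groups. With them alone as KO-water 60.9% of the microRNAs tested were called, and with the other 3 alone 0 were called, so the comparison under water depends on which knockout libraries enter. One further column of that deposited table, KO-exercise library 4, is labelled with exercise. Its counts of miR-126b-5p (95) and miR-122b-3p (195) lay in the ranges of the other KO-exercise libraries and its count of miR-196b-5p (34) lay above their 10 to 30, whereas the KO-water libraries had 0 to 1, 0 to 11 and 0 to 1.

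Those 3 microRNAs differed in level between exercise and water and overlapped between the genotypes. The fixed set that holds them was chosen with earlier results of these data known, so this split is a description and not a test. MiR-126b-5p had 45 to 159 counts in KO-exercise and 24 to 293 in WT-exercise, against 0 to 2 in WT-water. MiR-122b-3p had 105 to 300 and 23 to 444, against 0 to 13. MiR-196b-5p had 10 to 34 and 6 to 35, against 0. The 3 were not particular to exercise, as the wild-type libraries labelled with corticosterone had 25 to 162, 35 to 347 and 4 to 30 counts of them. After exercise their genotype differences were -0.18 ± 0.45, 0.06 ± 0.48 and 0.23 ± 0.42. Mir126b lies on the strand opposite Mir126a, and the sources used here do not say whether counting kept the strands apart. The exercise and water libraries thus differ in microRNAs that are near absent from 1 treatment, and their part in any difference between treatments was not tested.

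Over 510 microRNAs tested in both, the genotype differences after exercise and under water had a Pearson correlation of -0.06 and a Spearman correlation of -0.04 across microRNAs, which are not independent replicates, and 244 had the same sign. The weight on the axis of within-group variation had a Spearman correlation of 0.77 with the difference under water over the same microRNAs. With the difference after exercise its Pearson correlation was 0.23 over all 517 tested. The measures differ, so their sizes cannot be compared. The value for water also depends on which KO-water libraries enter, as these split along the axis. MiR-342-3p stood at 1.68 ± 0.42 under water and at -0.18 ± 0.43 after exercise, and miR-218-5p at 1.37 ± 0.31 and 0.02 ± 0.32.

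**Figure D5:**
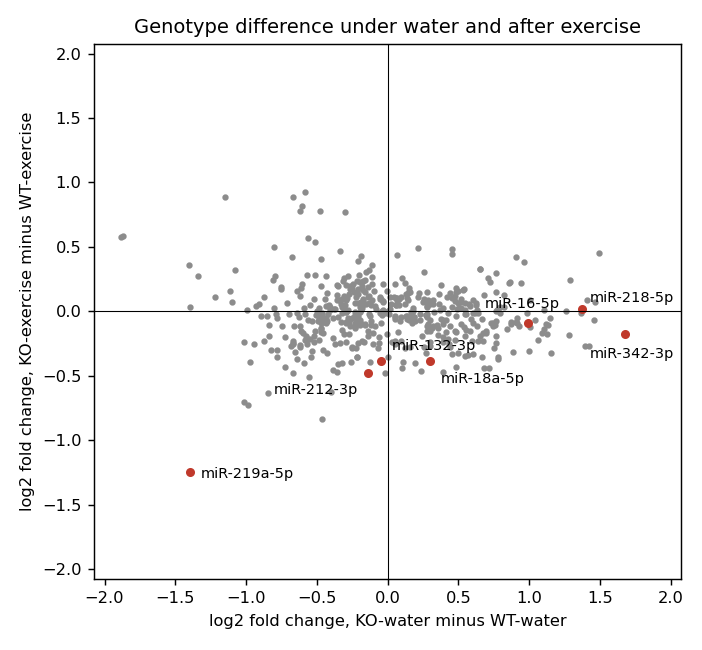
Log2 fold change between genotypes under water (horizontal) and after exercise (vertical) for 510 microRNAs tested in both, 1 dot each, with 7 microRNAs in red. The cloud is wider along the water axis and shows no slope, with miR-342-3p and miR-218-5p far to the right near 0 on the vertical axis and miR-219a-5p low on both.

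The difference between the 2 genotype differences was tested in 1 fit of the 23 libraries of the 4 groups. It called 0 of 571 microRNAs (0%), with a lowest adjusted p of 0.190 (edgeR). An unadjusted p below 0.05 was reached by 101 (edgeR), of which 22 were higher and 79 lower. That is above the share of 0.05 expected with no difference. MiR-132-3p had joint-scaled levels of 4212 ± 557 CPM in KO-exercise, 5521 ± 688 in WT-exercise, 2504 ± 461 in KO-water and 2495 ± 439 in WT-water (SD, n = 5, 5, 6 and 7). The water groups were close to each other and both exercise groups lay above them, with the knockout between. Its genotype difference after exercise minus that under water was -0.40 ± 0.21, which did not pass (edgeR adjusted p = 0.311). MiR-212-3p was at 1565 ± 218, 2182 ± 203, 1197 ± 198 and 1273 ± 176 CPM in the same order, and the difference between its genotype differences was -0.39 ± 0.19 (edgeR adjusted p = 0.281).

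MiR-132-5p, the opposite arm of miR-132-3p, had a difference between genotype differences of -0.60 ± 0.18 (edgeR adjusted p = 0.190). It stood at 0.30 ± 0.12 under water and at -0.24 ± 0.15 after exercise. The 3 tested arms of the miR-129 hairpins also stood above 0 under water and below 0 after exercise. MiR-129-2-3p stood at 0.55 ± 0.16 under water and -0.34 ± 0.19 after exercise, and miR-129-1-3p at 0.39 ± 0.22 and -0.47 ± 0.19 (edgeR adjusted p = 0.190 for both differences of differences). MiR-129-5p stood at 0.48 ± 0.20 and -0.16 ± 0.28 (edgeR adjusted p = 0.281). MiR-18a-5p stood at 0.30 ± 0.16 and -0.38 ± 0.17 (edgeR adjusted p = 0.190). DESeq2 called 4 microRNAs in this test: miR-181b-1-3p, miR-132-5p, miR-129-2-3p and miR-532-5p, each at an adjusted p of 0.0496 (DESeq2). MiR-181b-1-3p stood at 1.54 ± 0.41, and the others at -0.59 ± 0.16, -0.95 ± 0.25 and -1.34 ± 0.37 in that order. These 4 were named after their values were seen. With only those KO-water libraries that the authors put in their water comparison, 42.3% of the microRNAs tested were called, and with only the other KO-water libraries 0 were called and 18 had an unadjusted p below 0.05.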

How the data were processed

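Total RNA of the right hippocampus was enriched for small RNA and sequenced on an Ion Torrent S5, per the labels' protocols. In 5 tables the authors deposited counts, whole and not normalized, for 1966 mature microRNAs. The tools were, per the submitters' processing notes, cutadapt 2.3, limma 3.54.1, BWA, featureCounts and Subread, and the build was GRCm38 (mm10). Their order, roles and strand setting are not given in the sources used here. Columns were matched to samples by the code in the labels, and the exercise columns of different tables were joined. The tables held 0 further sample columns. Depth per library is that of counts assigned to microRNAs.

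Counts were tested with edgeR 4.0.16 in R 4.3.3 (filterByExpr by group, TMM, robust glmQLFit, quasi-likelihood F test) on the 10 exercise libraries, with Benjamini-Hochberg adjustment over all microRNAs tested and calls at an adjusted p below 0.05. SEs were derived from F. The interaction and the water comparison were fitted in the same way on 23 and 13 libraries. Alternatives were DESeq2 1.42.0, voom in limma 3.58.1, other scalings and filters, a joint fit of all 6 groups, code letter, replicate block, the within-group axis and leaving out libraries. The scripts were tested on simulated data.

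Named microRNAs were all called ones, 8 in each direction by smallest p, the 2 most abundant of each list, a fixed set and the 5 most abundant; relatives and opposite arms of these, the axis ends and the extremes of lists were added after their values were seen. The libraries, lists and fixed set were chosen with earlier results of these data known.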

Additional observations from a re-analysis of the deposited data

Results flagged for a closer look

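Among 118 groups of 5 libraries examined, 2 had a library far from the other 4. Chance alone flags about 1 in 20 such groups. Let-7f-5p was at 14715 CPM in KO-exercise replicate 2, against 18471 to 19120 CPM in the other KO-exercise libraries. MiR-146a-5p, a regulator of innate immune signalling, was at 168 CPM in KO-exercise replicate 3, against 204 to 215 CPM in the others. Neither microRNA differed between genotypes by more than its SE.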

How the results depend on the processing

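The comparison of genotypes after exercise gave 0 calls under all 22 other settings, with 3 to 43 microRNAs at an unadjusted p below 0.05. With the replicate number as a replicate block it gave 0 calls and 5 at that p, and the block changed no call. Same-numbered libraries of the 2 genotypes correlated at -0.62 to 0.67, and the numbers were taken not to pair them. The lowest adjusted p over the settings was 0.256. The 3 microRNAs whose groups did not overlap were 3 under both other scalings. For single microRNAs a sign change smaller than the SE was counted as the same: of 1231 values for 56 microRNAs, 1220 were the same by this rule, 125 of them with such a sign change, and 11 were reversed. Within letter H (2 libraries per genotype), miR-7068-3p was at -0.55, miR-135a-5p at -0.32, miR-1a-3p at 0.19, miR-133a-3p at 0.33, miR-204-5p at 0.18, miR-29b-3p at 0.25 and miR-434-3p at 0.36. Leaving out 1 library, miR-342-3p ran from -0.42 to 0.31, miR-126a-3p from -0.21 to 0.14 (both highest without WT-exercise replicate 3), miR-144-3p from -0.83 to 0.077 and miR-126b-5p from -0.42 to 0.35 (both highest without WT-exercise replicate 2). The cause was not tested.

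Shares of tested microRNAs called are given for the other tests. The difference between genotype differences gave 0%, against 0.701% by DESeq2, 0% to 0.170% when leaving out 1 exercise library (miR-129-2-3p at -1.06 without WT-exercise replicate 2, named after its value was seen) and 42.3% with the KO-water libraries of the deposited water comparison alone. Under water, 0% became 4.77% with DESeq2 size factors, 21.1% with DESeq2, 1.58% without a filter, 9.05% at a mean of at least 10 CPM, 11.005% in the joint fit and 60.9% with the same KO-water libraries alone. Each other setting gave 0. Depth limits the microRNAs of low count, which the filter leaves out.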
